A study of Homo sapiens with 16 samples.

Results

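The fibroblast growth factors FGF1, FGF2 and FGF5 and the receptor genes FGFR1, FGFR2, FGFR3, FGFR4 and FGFRL1 were followed in human melanoma cells after inhibitors of the MAPK pathway were withdrawn. These 8 genes were taken by their symbols from the deposited count table, and all 8 were among its 30813 genes. The cells were DR A375 and 451Lu BR, drug-resistant derivatives of the BRAF-mutant melanoma lines A375 and 451Lu, called A375 and 451Lu below. A375 cells were on dabrafenib (0.5 µM) and trametinib (0.05 µM), which inhibit BRAF and MEK, or had been in DMSO without drug for 6, 24 or 48 h. For 451Lu, the cells were on dabrafenib (1 µM) or had been in DMSO for 24, 72 or 120 h. All cells were grown in DMEM with 9% fetal bovine serum, so serum factors were present in each group. Each of the 8 groups had 2 RNA-sequencing libraries, 16 in all. The on-drug libraries of a line were the reference for all of its times, so a change with time in the dish and one with loss of drug cannot be told apart, and cells that had never met drug were not analysed here. The labels also call the 451Lu cells resistant to trametinib, while the treatment notes name dabrafenib alone.

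Fibroblast growth factors bind receptor tyrosine kinases at the cell surface together with heparan sulfate chains, and the paired receptors then recruit adaptor proteins that switch on RAS, RAF, MEK and ERK. FGF1 and FGF2 leave the cell without a signal peptide, whereas FGF5 is secreted in the classical way. FGFR1 to FGFR4 carry the kinase, while FGFRL1 binds ligand but has no kinase domain. In melanoma, FGF2 is known as an autocrine growth factor that acts through FGFR1.

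Library totals ran from 9714190 to 16691725 counts. Levels are read counts relative to library size (CPM), scaled with TMM factors over the 16 libraries, and a 0 in both libraries of a group allows up to 3 counts, which is 0.0889 to 0.158 CPM depending on the group. Fold changes and adjusted p-values come from edgeR's quasi-likelihood test with Benjamini-Hochberg adjustment over all genes tested in a comparison, and a gene was called at an adjusted p of 0.05 or lower. All 8 genes passed the filter on low counts in A375. In 451Lu 6 of 8 passed, without FGFR2 and FGFR3. FGF1 and FGF5 in A375 passed only through the 6 h group, FGF1 and FGF2 in 451Lu only through 72 and 120 h, and FGF5 in 451Lu only through the withdrawal groups. As they could enter the test only by being high there, their differences from on-drug cells are given as values, with no p. The 7 melanocyte-lineage markers were all found in every group except 451Lu at 120 h, where TYRP1 was at 0. Their summed level was 4905 to 5020 CPM on drug and 954 to 1047 CPM at 48 h in A375. In 451Lu it was 11163 to 11746 CPM on drug and 953 to 1065 CPM at 120 h. DCT was the largest part in A375 on drug (mean 2961 CPM, 94.4 CPM at 48 h), and PMEL in 451Lu on drug (9251 CPM, 423 CPM at 120 h). The markers did not move alike. SOX10 in A375 went from 608 CPM on drug to 543 CPM at 48 h. MITF in 451Lu was at 617 CPM on drug, 148 CPM at 24 h and 296 CPM at 120 h. Of other lineages, the 5 fibroblast markers summed to 5.02 to 23.6 CPM in A375 and 24.3 to 153 CPM in 451Lu. LUM carried this sum in 451Lu on drug and was 24.3-fold lower at 120 h (153 and 138 to 5.48 and 6.66 CPM, adjusted p = 3.25e-15). At 120 h PDGFRA was the largest part, at 26.5 and 13.6 CPM. Other fibroblast markers went the opposite way there, with PDGFRA 48.0-fold and COL1A1 24.4-fold higher, and DCN going from 3 to 94 counts. PDGFRA, COL1A1 and DCN passed the filter in 451Lu only through withdrawal groups, so no p is given for them. The 4 epithelial markers summed to 20.6 to 68.6 CPM, with EPCAM at 0 in 7 of 8 groups. The 2 leukocyte markers summed to at most 2.82 CPM, with PTPRC at 0 in 451Lu. The 2 endothelial markers, PECAM1 and VWF, summed to at most 1.10 CPM on drug but to 118 CPM in both 451Lu libraries at 120 h. PECAM1 made up nearly all of that, at 118 and 117 CPM, and was at 0 in 451Lu on drug. VWF went the other way in that line, from 0.817 and 1.10 CPM on drug to 0.343 and 0.386 CPM at 120 h. The part of these marker changes in the results was not tested. In such bulk RNA, fewer expressing cells and less RNA per cell cannot be told apart.

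The stretches before the start sites of the 3 ligand genes are shown because all 3 were higher in 451Lu off drug at 120 h than on drug, though they reached their levels at different times. They are RefSeq sequences of build GRCh38.p14, read 5′ to 3′ on the gene's strand, and bases inside an annotated exon of the gene (GENCODE v29) were left off, which shortened the FGF2 stretch to 127 bases. The last line is a 27-base piece of FGF1 at chr5:142644264-142644290 (minus strand), with an AP-1 match in capitals.
FGF1, chr5:142698071-142698320 (minus strand): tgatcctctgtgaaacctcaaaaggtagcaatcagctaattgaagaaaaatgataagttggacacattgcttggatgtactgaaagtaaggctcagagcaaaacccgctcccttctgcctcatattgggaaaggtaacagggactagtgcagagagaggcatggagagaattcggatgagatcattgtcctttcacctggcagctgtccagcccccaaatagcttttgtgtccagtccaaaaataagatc
FGF2, chr4:122826581-122826707 (plus strand): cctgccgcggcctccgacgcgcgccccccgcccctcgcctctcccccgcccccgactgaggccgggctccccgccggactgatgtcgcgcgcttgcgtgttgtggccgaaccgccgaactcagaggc
FGF5, chr4:80266338-80266587 (plus strand): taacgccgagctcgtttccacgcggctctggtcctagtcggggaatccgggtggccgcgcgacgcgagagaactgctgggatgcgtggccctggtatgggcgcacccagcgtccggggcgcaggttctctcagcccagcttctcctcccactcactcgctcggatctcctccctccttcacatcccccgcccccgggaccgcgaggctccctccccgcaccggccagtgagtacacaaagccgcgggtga
FGF1 AP-1 match: taagatattcTGAGTCAgagaaaacaa
The FGF2 stretch was 78% G and C and the FGF5 stretch 68.8%, against 44.8% for FGF1. RefSeq windows were found for 7 of the 8 genes, 16 windows of 250 bases in all. Each was searched on both strands for TGANTCA (AP-1), CCGGAA (ETS), CACGTG and CATGTG, none of which contains another. Among 35116 such windows of all genes, 6.57% held the AP-1 motif, 14.5% the ETS motif, 6.34% CACGTG and 9.42% CATGTG. The windows before the first FGF1 start, the FGF2 start and the first FGF5 start held none of the 4, and the AP-1 match lies before another, downstream start of FGF1. One window of FGFRL1 and one of FGFR4 held CACGTG, and a second FGF1 window held CATGTG.

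FGFR1 and FGFRL1 were higher off drug than on drug at every time in both lines, and FGF5, with 0 counts on drug, was found in both after withdrawal. In 451Lu, FGF1 had nearly the same level at 72 and 120 h, and FGF2 was highest at 120 h. PECAM1, PDGFRA, COL1A1 and DCN were also higher at 120 h in that line, and their part was not tested. A375 had FGF2 between 20.6 and 28.8 CPM throughout, and its FGFR2 fell. FGFR4 was higher off drug at each time in A375 and at none in 451Lu. Most genes of the table changed too, and the counts of called genes are read against that. In A375, 6 of the 8 genes were called higher and 2 lower at 6 h, when 73.3% of all tested genes were called (35.1% higher, 38.1% lower). At 24 h it was 6 higher and 1 lower, with 72.6% of all genes called (36.2% higher, 36.3% lower), and at 48 h 5 higher and 1 lower, with 72.6% called (36.6% and 36.0%). From 6 to 24 h 3 rose and 3 fell (69.8% of all genes called, 35.5% and 34.2%), and from 24 to 48 h 1 rose and 2 fell (29.9% called, 14.2% and 15.7%). In 451Lu, 4 of the 6 genes tested were higher at 24 h (54.1% of all genes called, 29.2% higher, 24.9% lower). At 72 h 5 were higher and 1 lower (67.7% called, 34.2% and 33.4%), and at 120 h 5 were higher (73.8% called, 37.3% and 36.6%). From 24 to 72 h 5 rose (51.4% called, 25.9% and 25.5%), and from 72 to 120 h 3 rose (32.7% called, 16.6% and 16.1%). These counts include the ligands that passed the filter only off drug. FGF1 and FGF5, which passed in A375 only through 6 h, are among those that fell from 6 to 24 h. Of the 6 genes of A375 that passed on their on-drug level too, 4 were higher and 2 lower at 6 h, 5 higher and 1 lower at 24 h, and 4 higher and 1 lower at 48 h. From 6 to 24 h 3 of these 6 rose and 1 fell, and from 24 to 48 h 1 rose and 2 fell. The 3 such genes of 451Lu were FGFR1, FGFR4 and FGFRL1, and 2 of them were higher at each time, with FGFR4 lower at 72 h. From 24 to 72 h 2 of the 3 rose, and from 72 to 120 h 2 rose.

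FGF2 (ENSG00000138685, chr4:122826708-122898236, plus strand, build GRCh38) differed more between the lines than any withdrawal time changed it in A375. In 451Lu on drug it had 1 and 2 counts, 0.0681 and 0.116 CPM. It stood at 0.144 and 0.428 CPM at 24 h, 3.48 and 2.29 CPM at 72 h, and 33.1 and 20.3 CPM at 120 h. The groups did not overlap and each later group was higher. The 24 h ratio of 2.91 was within counting error (95% interval 0.665 to 17.4), whereas the ratio to on-drug cells was 30.4 at 72 h (9.85 to 152) and 288 at 120 h (98.0 to 1400). FGF2 was 9.93-fold higher at 72 than at 24 h (log2 3.31 ± 0.61 SE, and log2 2.68 to 4.20 when single libraries were left out) and rose 9.23-fold from 72 to 120 h (log2 3.21 ± 0.26, adjusted p = 1.80e-07). The 2 libraries at 120 h held 386 and 210 counts, the widest spread of the gene in any group on the CPM scale (26.7 ± 9.06 CPM, SD, n = 2).

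In A375, FGF2 was already abundant on drug, at 22.2 and 20.6 CPM. Its level was 28.8 and 24.9 CPM at 6 h, 25.9 and 26.2 CPM at 24 h, and 23.8 and 22.3 CPM at 48 h. All withdrawal libraries therefore lay above both on-drug libraries, by small margins. The rise was 1.22-fold at 6 h (log2 0.29 ± 0.09, adjusted p = 0.00453) and 1.18-fold at 24 h (log2 0.24 ± 0.09, adjusted p = 0.0113), and was not called at 48 h (log2 0.07 ± 0.09, adjusted p = 0.498). Neither call held without the second on-drug library, when the adjusted p was 0.0511 at 6 h and 0.102 at 24 h; the 6 h call was also lost without the first 6 h library (adjusted p = 0.167), and the 24 h call with DESeq2 (adjusted p = 0.0604). On drug, A375 held 228 times the FGF2 level of 451Lu (95% interval 77.9 to 1110, adjusted p = 4.60e-16), but the 2 libraries of 451Lu at 120 h lay on either side of all A375 values.

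NUDT6 (ENSG00000170917, chr4:122888697-122922968) lies on the opposite strand and shares 804 exon bases with FGF2 at its 3′ end. The strand setting of the counting is not given in the sources used here, so reads of this stretch cannot be assigned to one gene with certainty. NUDT6 moved the other way. In A375 it fell from 7.23 and 6.34 CPM on drug to 2.04 and 1.61 CPM at 6 h, 3.80-fold lower (log2 -1.93 ± 0.22, adjusted p = 1.52e-09), and was still 2.28-fold lower at 48 h (adjusted p = 1.76e-06). In 451Lu it went from 6.74 and 7.13 CPM to 3.43 and 4.05 CPM at 120 h, 1.88-fold lower (log2 -0.91 ± 0.21, adjusted p = 0.00112). The 222 NUDT6 counts in 451Lu on drug stood beside 3 FGF2 counts. The other genes inside FGF2's span, RP11-170N16.2 and RP11-170N16.3, had at most 3 counts in any group.

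**Figure D1:**
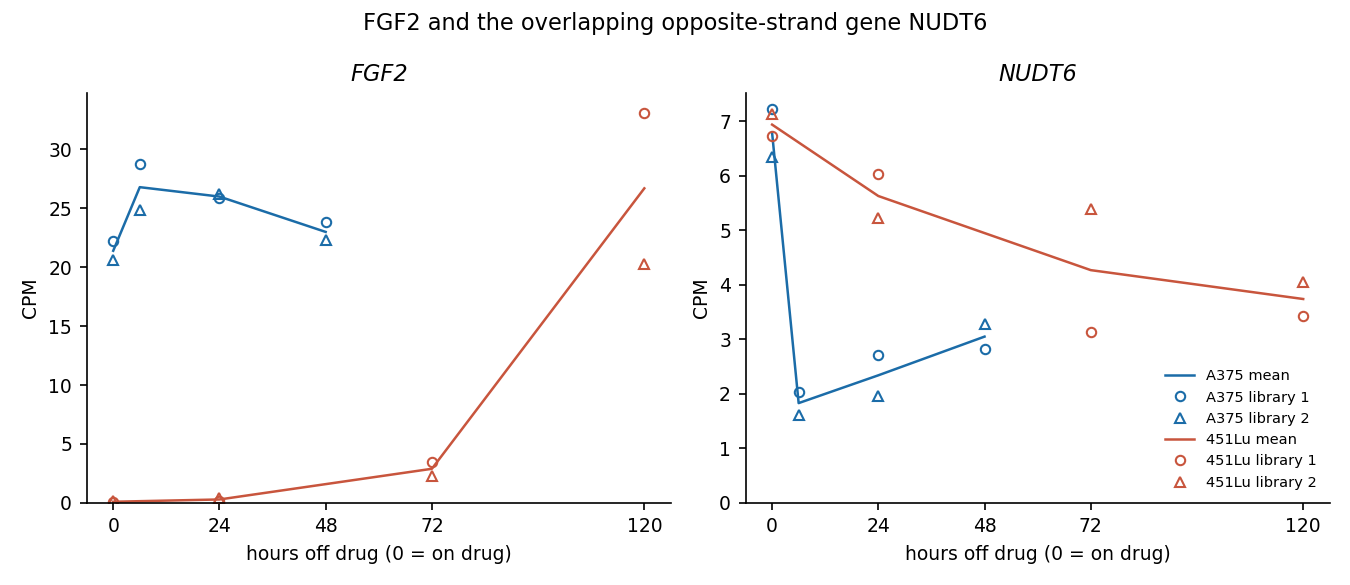
CPM of FGF2 and of the opposite-strand gene NUDT6 in each of the 16 libraries, by line and hours off drug, on linear axes from 0; circles and triangles are the 2 libraries of a group and lines join the group means. In 451Lu FGF2 climbed from 0.0681 and 0.116 CPM on drug to 33.1 and 20.3 CPM at 120 h while NUDT6 declined, and in A375 FGF2 stayed between 20.6 and 28.8 CPM.

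FGF1 (ENSG00000113578, chr5:142592178-142698070, minus strand) is a ligand able to bind all 4 kinase receptors. It was high at 6 h alone in A375 and at both late times in 451Lu. In A375 it was at 0.166 and 0.128 CPM on drug, 1.45 and 1.52 CPM at 6 h, 0.241 and 0.245 CPM at 24 h, and 0.264 and 0.345 CPM at 48 h. The 6 h libraries stood well above all others of the line. The 6 h level was 9.25-fold that on drug (log2 3.21 ± 0.53), with 34 counts per group against 5, and 5.91-fold that at 24 h. The 24 and 48 h groups had 7 counts each and were not called different from on-drug cells.

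In 451Lu, FGF1 had no count on drug, then 1.44 and 0.771 CPM at 24 h, 12.9 ± 1.38 CPM at 72 h and 13.9 ± 1.21 CPM at 120 h (SD, n = 2). The 72 and 120 h groups overlapped, and both were above all other groups of either line. Against the limit of 3 counts, FGF1 was at least 12.1-fold higher at 24 h, at least 137-fold at 72 h and at least 148-fold at 120 h. The step from 24 to 72 h was 11.1-fold (log2 3.48 ± 0.25), and the step from 72 to 120 h was not called (log2 0.09 ± 0.16, adjusted p = 0.718). The antisense gene AC005592.2 overlaps FGF1's span without sharing exon bases, and the strand setting of the counting is not known for it either. Its group totals in 451Lu were 10, 14, 16 and 24 counts from on drug to 120 h. In A375 they were 71, 20, 104 and 135 counts from on drug to 48 h, beside 5, 34, 7 and 7 for FGF1, so the antisense gene was lowest where FGF1 was highest.

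FGF5 (ENSG00000138675, chr4:80266599-80336680, plus strand), a ligand known from the control of the hair cycle, had 0 counts in all 4 on-drug libraries and at least 5 counts in each of the 12 withdrawal libraries. In A375 the values were 0.937 and 1.34 CPM at 6 h, 0.422 and 0.409 CPM at 24 h, and 0.616 and 0.517 CPM at 48 h. These levels were at least 12.8-fold, 4.68-fold and 6.37-fold above on-drug cells. As with FGF1, the highest A375 group was 6 h, and the level at 24 h was 2.68-fold below it (log2 -1.42 ± 0.48).

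FGF5 in 451Lu reached 1.22 and 1.71 CPM at 24 h, 3.93 and 2.59 CPM at 72 h, and 3.26 and 2.61 CPM at 120 h. It was at least 15.4-fold, 34.3-fold and 31.4-fold higher than on drug. The 72 and 120 h groups overlapped (adjusted p = 0.737 for their difference), and the 2.18-fold step from 24 to 72 h (adjusted p = 0.0100) was lost with DESeq2 (adjusted p = 0.0628), without the first 24 h library (0.0911) and without the first 72 h library (0.119). FGF5 stayed a low-level transcript in both lines, below 4 CPM in every library.

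**Figure D2:**
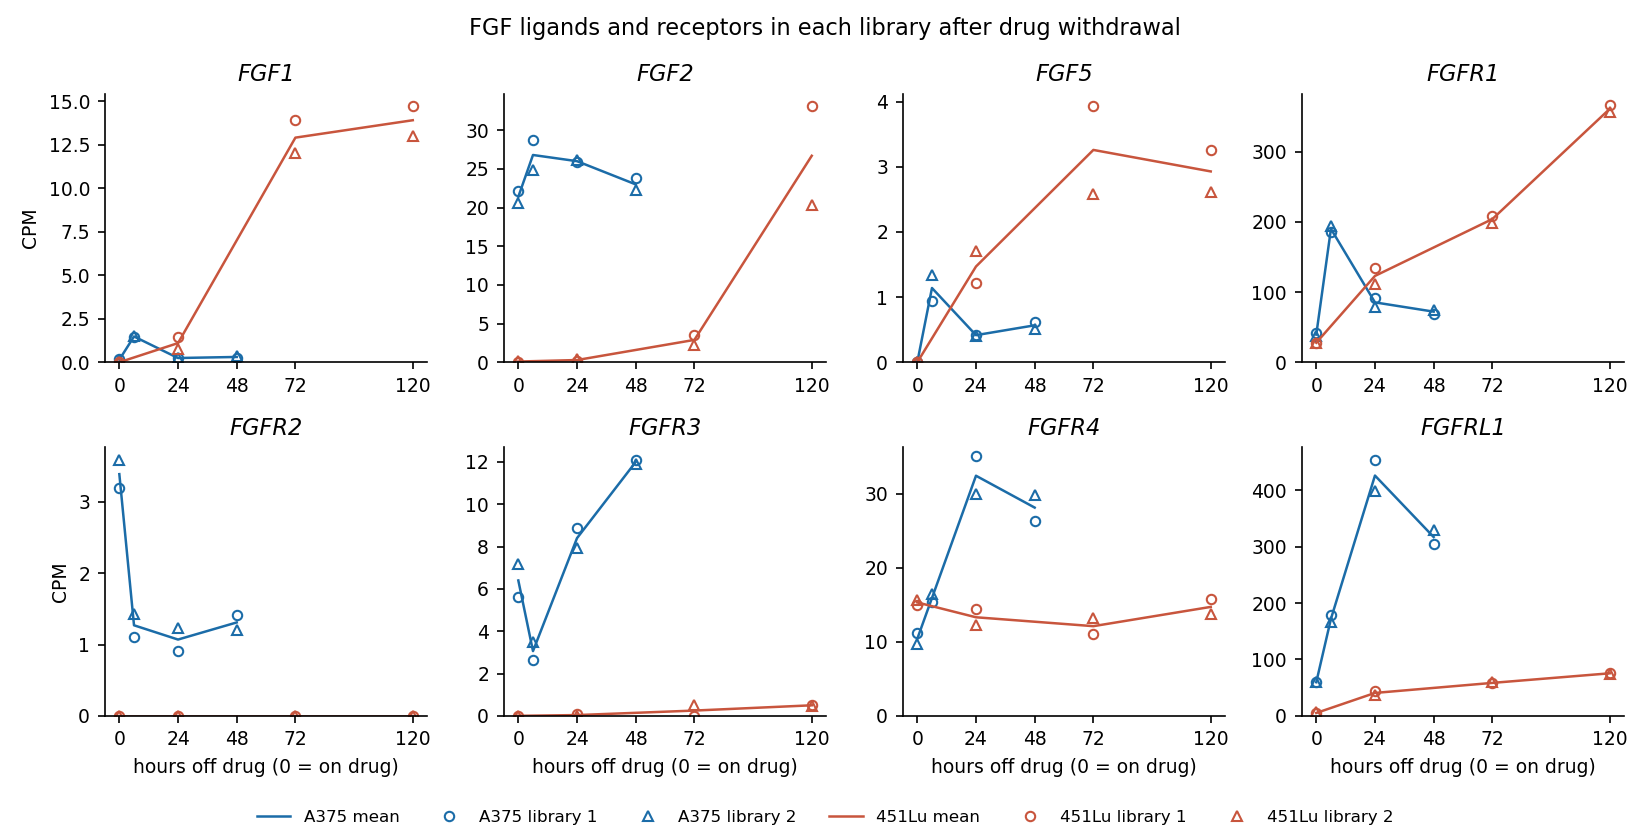
CPM of the 8 genes in each library by hours off drug, with A375 and 451Lu in separate colours, a marker for each library and lines through the group means, on linear axes from 0. FGFR1 peaked at 6 h in A375 and was highest at 120 h in 451Lu, FGF1 and FGF5 left 0 after withdrawal in 451Lu, and FGFR2 had no count in any 451Lu library.

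FGFR1 (ENSG00000077782, chromosome 8, 38411138 to 38468834, minus strand), the receptor most often tied to FGF2 in melanoma, rose in both lines at every time. In A375 it stood at 41.6 and 37.2 CPM on drug, 186 and 194 CPM at 6 h, 91.1 and 79.4 CPM at 24 h, and 69.1 and 75.1 CPM at 48 h. No 2 groups overlapped: 6 h was the peak, and the later groups stayed above on-drug cells. The rise was 4.69-fold at 6 h (log2 2.23 ± 0.06, adjusted p = 4.52e-26), 2.12-fold at 24 h (log2 1.08 ± 0.07, adjusted p = 3.50e-16) and 1.78-fold at 48 h (log2 0.83 ± 0.07, adjusted p = 1.28e-12). From 6 to 24 h FGFR1 fell 2.22-fold (adjusted p = 1.87e-18). The 1.19-fold fall from 24 to 48 h (adjusted p = 0.00394) was not called without the first 24 h library (log2 -0.14, adjusted p = 0.192).

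The course in 451Lu had no such peak. FGFR1 was at 28.1 and 27.5 CPM on drug, 135 and 111 CPM at 24 h, 209 and 199 CPM at 72 h, and 366 and 356 CPM at 120 h. Each time was above the one before it, with no overlap. Relative to on-drug cells FGFR1 rose 4.52-fold (log2 2.18 ± 0.09, adjusted p = 2.81e-12), 7.35-fold (log2 2.88 ± 0.09, adjusted p = 4.50e-14) and 12.8-fold (log2 3.68 ± 0.08, adjusted p = 1.42e-15). The later steps were 1.63-fold from 24 to 72 h (adjusted p = 1.10e-06) and 1.75-fold from 72 to 120 h (adjusted p = 5.77e-07). RPS20P22 and RP11-350N15.4, which lie within FGFR1's span, had at most 27 counts in a group, against 887 to 7954 for FGFR1.

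FGFR4 (ENSG00000160867, chr5:177086886-177098144, plus strand), the receptor of the endocrine ligand FGF19 in liver, rose in A375. It went from 11.2 and 9.67 CPM on drug to 15.4 and 16.5 CPM at 6 h, 35.0 and 29.9 CPM at 24 h, and 26.3 and 29.8 CPM at 48 h. Its peak thus came at 24 h, when FGFR1 was already below its own. The rises were 1.48-fold (log2 0.57 ± 0.12, adjusted p = 9.58e-05), 3.04-fold (log2 1.60 ± 0.10, adjusted p = 3.62e-16) and 2.62-fold (log2 1.39 ± 0.11, adjusted p = 1.04e-13). The step from 24 to 48 h was not called (log2 -0.22 ± 0.09, adjusted p = 0.0654), except without the second 24 h library (log2 -0.32) or the second 48 h library (log2 -0.31).

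In 451Lu, FGFR4 was at 15.3 ± 0.447 CPM on drug (SD, n = 2), 14.4 and 12.3 CPM at 24 h, 11.1 and 13.2 CPM at 72 h, and 15.7 and 13.8 CPM at 120 h. These groups lie close together, and on-drug cells overlapped with 120 h. The changes were log2 -0.16 ± 0.12 at 24 h (adjusted p = 0.280) and -0.07 ± 0.12 at 120 h (adjusted p = 0.641). At 72 h FGFR4 was called 1.25-fold lower (log2 -0.33 ± 0.13, adjusted p = 0.0377). That call was lost with DESeq2 (adjusted p = 0.153) and without either on-drug library or the first 72 h library (adjusted p from 0.0716 to 0.248).

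FGFR3 (ENSG00000068078, chr4:1793307-1808872, plus strand), known for its role in bone growth, first fell and then rose in A375. It was at 5.63 and 7.17 CPM on drug, 2.64 and 3.49 CPM at 6 h, 8.86 and 7.93 CPM at 24 h, and 12.1 and 11.9 CPM at 48 h. The 6 h group was the lowest and the 48 h group the highest, with no overlap between neighbours. It fell 2.13-fold by 6 h (log2 -1.09 ± 0.20, adjusted p = 8.73e-06), rose 2.77-fold from 6 to 24 h (log2 1.47 ± 0.19, adjusted p = 2.41e-08), and by 48 h was 1.85-fold above on-drug cells (log2 0.89 ± 0.14, adjusted p = 1.25e-06). Its 1.30-fold rise at 24 h over on-drug cells (adjusted p = 0.0211) was lost with DESeq2 (adjusted p = 0.125), without the first on-drug library (log2 0.20, adjusted p = 0.324) and without the first 24 h library (log2 0.29, adjusted p = 0.197). The 1.42-fold rise from 24 to 48 h (adjusted p = 0.00496) was not called by DESeq2 (adjusted p = 0.0945). In 451Lu, FGFR3 had 0, 1, 5 and 11 counts per group from on drug to 120 h and was too low to be tested. Those 11 counts put the 120 h level at least 5.31-fold above that on drug.

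FGFR2 (ENSG00000066468, chr10:121478334-121598458, minus strand), the kinase receptor with the best known epithelial and mesenchymal splice forms, fell in A375 and was not detected in 451Lu. Its A375 levels were 3.20 and 3.59 CPM on drug, 1.11 and 1.43 CPM at 6 h, 0.904 and 1.23 CPM at 24 h, and 1.41 and 1.21 CPM at 48 h. On-drug cells were above every withdrawal library, and the 6 h group overlapped with the other withdrawal groups. FGFR2 was 2.73-fold lower at 6 h (log2 -1.45 ± 0.28, adjusted p = 2.30e-05), 3.30-fold at 24 h (log2 -1.72 ± 0.27, adjusted p = 1.01e-06) and 2.64-fold at 48 h (log2 -1.40 ± 0.28, adjusted p = 3.41e-05). It was the only one of the 8 genes called lower than on drug at all 3 A375 times. All 8 libraries of 451Lu had 0 counts, which allows up to 0.158 CPM in a group.

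FGFRL1 (ENSG00000127418, chr4:1009936-1026897, plus strand), the receptor without a kinase domain, was raised at all 3 times in both lines. In A375 it moved from 59.3 and 59.9 CPM on drug to 178 and 166 CPM at 6 h, 454 and 399 CPM at 24 h, and 304 and 329 CPM at 48 h. The peak was at 24 h, as for FGFR4. It was 2.81-fold (log2 1.49 ± 0.06, adjusted p = 2.11e-21), 6.99-fold (log2 2.80 ± 0.06, adjusted p = 2.81e-30) and 5.19-fold (log2 2.38 ± 0.06, adjusted p = 6.18e-28) above on-drug cells. From 24 to 48 h it fell 1.35-fold (adjusted p = 3.80e-08).

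In 451Lu, FGFRL1 began far lower, at 4.22 and 5.92 CPM on drug. It reached 43.4 and 37.8 CPM at 24 h, 57.7 and 59.1 CPM at 72 h, and 76.2 and 74.6 CPM at 120 h. The first of the 3 steps was the largest, and each later group was higher without overlap. The increases were 8.09-fold (log2 3.02 ± 0.12, adjusted p = 4.97e-12), 11.4-fold (log2 3.51 ± 0.12, adjusted p = 3.30e-13) and 14.5-fold (log2 3.86 ± 0.12, adjusted p = 3.67e-14). At 72 h the level in 451Lu was just below that of A375 still on drug (58.4 against 59.6 CPM).

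**Figure D3:**
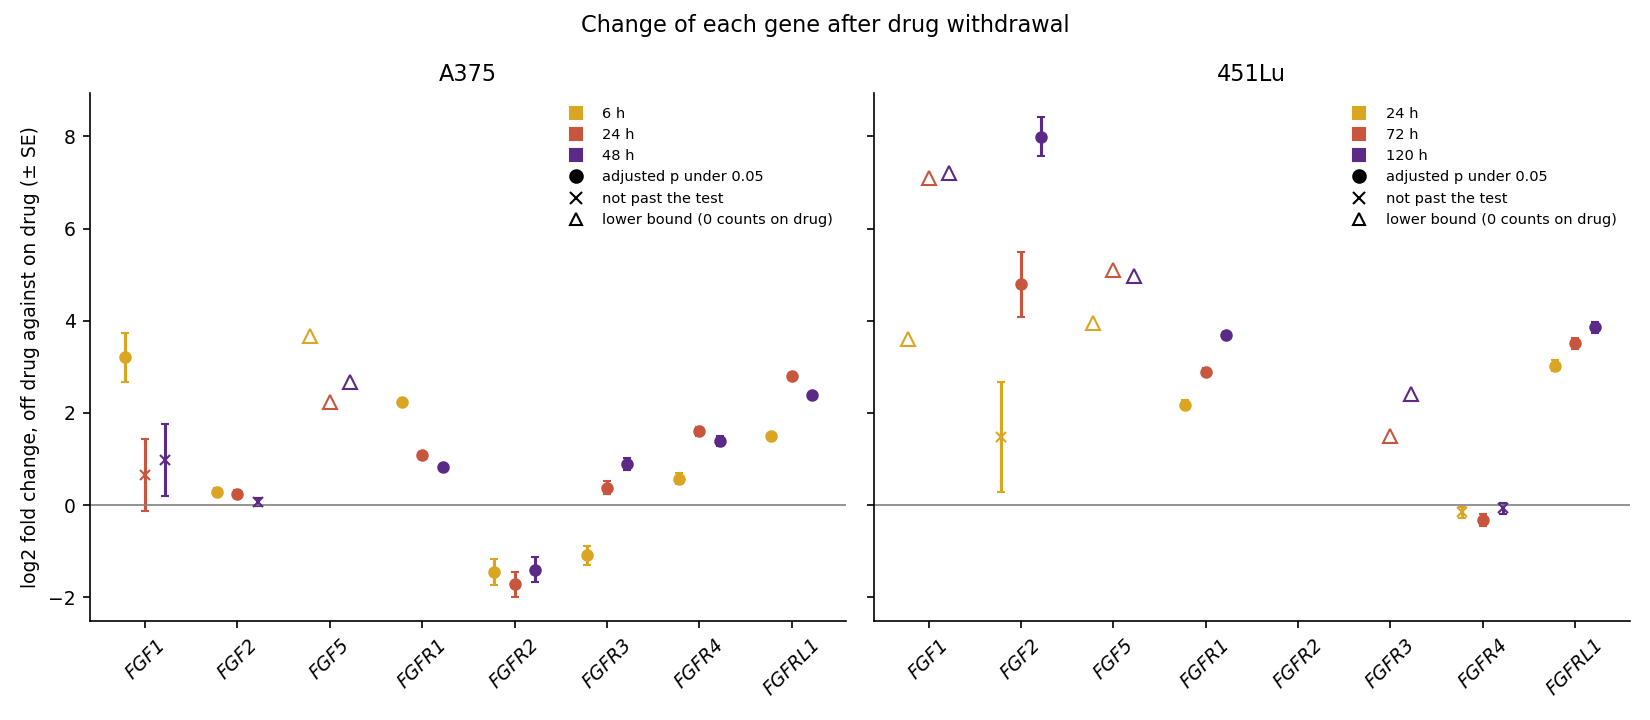
Log2 fold change of each gene against on-drug cells at the 3 withdrawal times of each line, with bars of 1 SE; crosses did not pass the test, and open triangles are lower bounds against 3 counts where on-drug cells had 0 (FGFR3 in 451Lu was not tested). FGFR1 and FGFRL1 lie above 0 at all 6 times, FGFR2 lies below 0 at the 3 A375 times, and FGFR4 lies near 0 in 451Lu.

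On drug, A375 was called higher than 451Lu in 6 of the 8 genes and lower in 1, where 77.2% of all genes tested were called (37.9% higher, 39.3% lower). The 6 include FGFR2 and FGFR3, which could pass the filter only by being high in A375, and FGF1, at 5 counts against 0. FGFRL1 was 11.6-fold higher in A375 (log2 3.54 ± 0.11, adjusted p = 7.53e-20), and FGFR1 1.42-fold higher (log2 0.51 ± 0.09, adjusted p = 2.19e-05). FGFR3 was at least 67.5-fold and FGFR2 at least 36.0-fold higher, as neither had a count in 451Lu on drug; both passed the filter only through A375, so no p is given. FGFR4 went the other way, 1.46-fold lower in A375 (log2 -0.55 ± 0.12, adjusted p = 0.000229). FGF1 was at least 1.58-fold higher in A375, on 5 counts against 0, and its call was lost without the first A375 library or either 451Lu library. Neither on-drug group passed the filter for FGF1, so no p is given. Line and drug differ together here and cannot be told apart.

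At 24 h, the one withdrawal time both lines share, the change itself was compared between them. FGFR1 rose less in A375 than in 451Lu (difference log2 -1.03 ± 0.12, adjusted p = 6.86e-08), and FGFR4 rose more in A375 (log2 1.83 ± 0.16, adjusted p = 8.60e-10). FGF1 rose more in 451Lu (log2 -6.20 ± 1.53), though with 0 counts on drug in that line the fitted size depends on the prior count. None of the groups compared passed the filter for FGF1 by itself, so no p is given. For FGFRL1 the difference was log2 -0.15 ± 0.15 (adjusted p = 0.467) and for FGF2 -1.17 ± 1.18 (adjusted p = 0.447), neither of them called. In all, 1 of 8 genes had a called difference towards A375 and 2, FGF1 among them, towards 451Lu, with 49.4% of all tested genes called (27.4% and 22.0%).

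Levels of different genes can be compared only per length, here as CPM per kilobase of exon annotated in GENCODE v29 within the table's gene span. That length is uncertain for FGFR1, as it may hold exons the counting did not use: 12698 bases of exon against 6054 in its longest protein-coding transcript. Among the 4 kinase receptors of A375 on drug, FGFR1 made up 44.1% of the summed level and FGFR4 30.7%. At 6 h FGFR1 held 78.5% and FGFR4 17.3%. At 24 h they held 43.9% and 43.8%, and at 48 h 40.1% and 41.0%. Lengths of the longest protein-coding transcript were an alternative chosen after seeing the data. With them FGFR1 was above FGFR4 at both 24 and 48 h (52.9% against 39.0%, and 49.8% against 37.6%). Their order at 48 h, and the size of their difference at 24 h, thus depend on the length used. FGFR3 held 18.9% on drug, 3.31% at 6 h and 17.6% at 48 h. The share of FGFR1 in A375 was highest at 6 h with either length (83.8% with the transcript).

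In 451Lu on drug, FGFR4 was the larger of the 2 kinase receptors present, with 59.1% of the level against 40.9% for FGFR1, or 51.6% against 48.4% with the transcript lengths. By 24 h FGFR1 held 77.7%, at 72 h 86.2% and at 120 h 90.0% (82.6%, 89.5% and 92.5% with the transcript lengths). The level of FGFR4 itself moved little, from 3.17 to 3.05 CPM per kilobase between on drug and 120 h, while FGFR1 went from 2.19 to 28.4. The summed kinase receptor level was 5.36 CPM per kilobase on drug and 31.6 at 120 h in 451Lu, and 7.04 on drug, 19.1 at 6 h and 14.1 at 48 h in A375. Once FGFRL1 was counted with them, it was the most abundant receptor in all A375 groups, with 67.2% on drug and 87.0% at 24 h. In 451Lu it made up 18.5% on drug and 36.6% at 120 h. The sums and these shares rest on the uncertain exon length of FGFR1. With its transcript length FGFR1 was at 59.6 instead of 28.4 CPM per kilobase at 120 h in 451Lu, and the FGFRL1 shares were not recomputed.

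**Figure D4:**
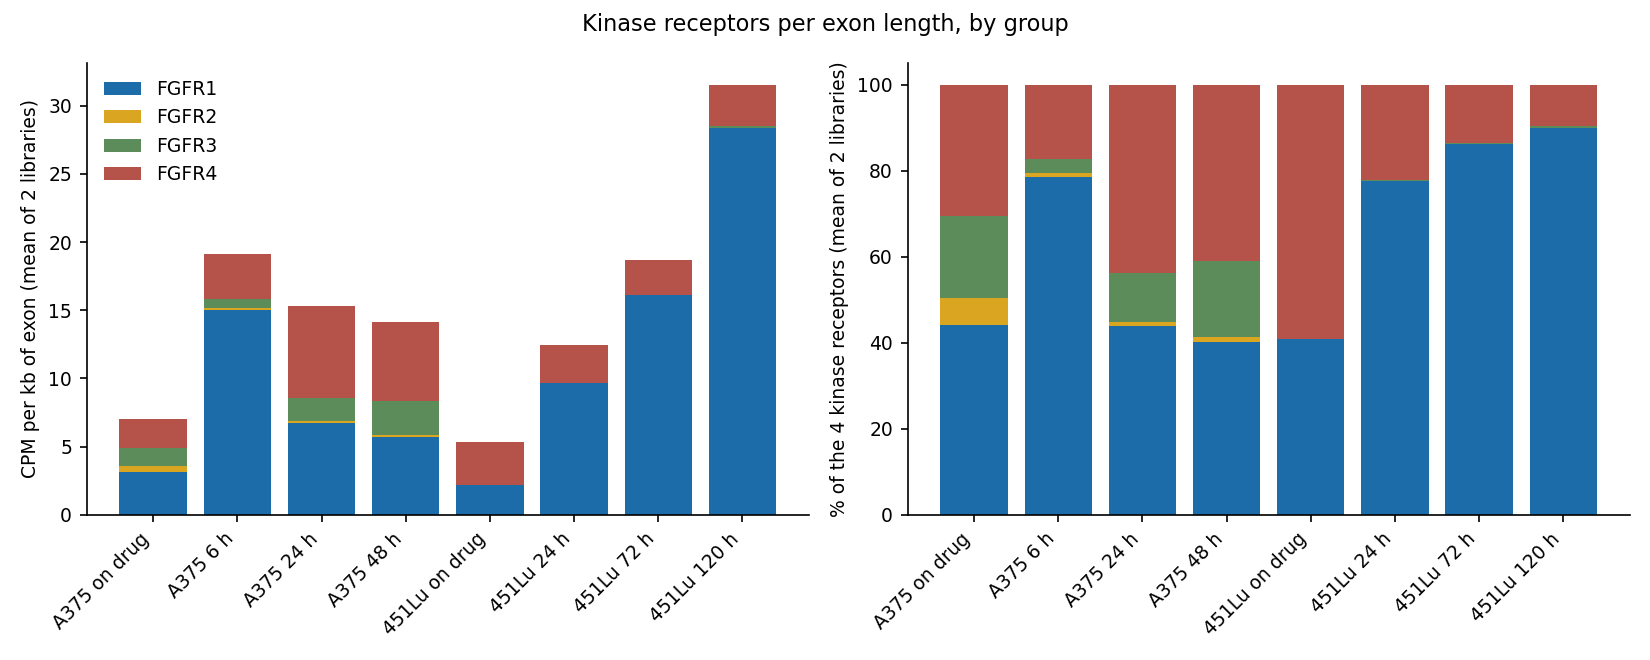
Stacked CPM per kilobase of exon of FGFR1, FGFR2, FGFR3 and FGFR4 (left) and their shares in percent (right), each as the mean of 2 libraries, for the 8 groups. The share of FGFR1 went from 40.9% to 90.0% in 451Lu, and in A375 went from 44.1% to 78.5% at 6 h and back to 43.9% at 24 h.

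Of the 3 ligands, FGF2 made up 99.1% of the per-length level in A375 on drug and 89.3% at 6 h. In 451Lu the ligands changed places. At 24 h FGF5 held 49.3% and FGF1 42.2%, at 72 h FGF1 held 72.0%, and at 120 h FGF2 held 55.1% and FGF1 37.9%. The 24 h shares rest on 37, 29 and 7 counts of FGF5, FGF1 and FGF2.

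Among the 15 other secreted FGFs listed, 8 were in the table and only FGF7 in A375 and FGF23 in 451Lu passed the filter. FGF7, a ligand of the epithelial FGFR2 form, was at 1.88 and 1.92 CPM in A375 on drug, 0.426 and 0.179 CPM at 6 h, 4.82 and 5.73 CPM at 24 h, and 4.93 and 4.74 CPM at 48 h. It fell 6.22-fold at 6 h (log2 -2.64 ± 0.45, adjusted p = 3.23e-06) and was 2.67-fold higher at 24 h (log2 1.42 ± 0.21, adjusted p = 3.40e-07), the same down-then-up order as FGFR3. FGF23, the phosphate hormone made by bone cells, had 0 counts in 451Lu on drug and in all A375 libraries. In 451Lu it reached 0.0718 and 1.03 CPM at 24 h, 1.57 and 6.39 CPM at 72 h, and 13.5 and 26.0 CPM at 120 h. The second library was the higher at each time. FGF23 was at least 5.41-fold above on-drug cells at 24 h, 43.9-fold at 72 h and 206-fold at 120 h, and it too could pass the filter only off drug. KL, the co-receptor that FGF23 needs for its hormone action, had 1 count over all 16 libraries.

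**Figure D5:**
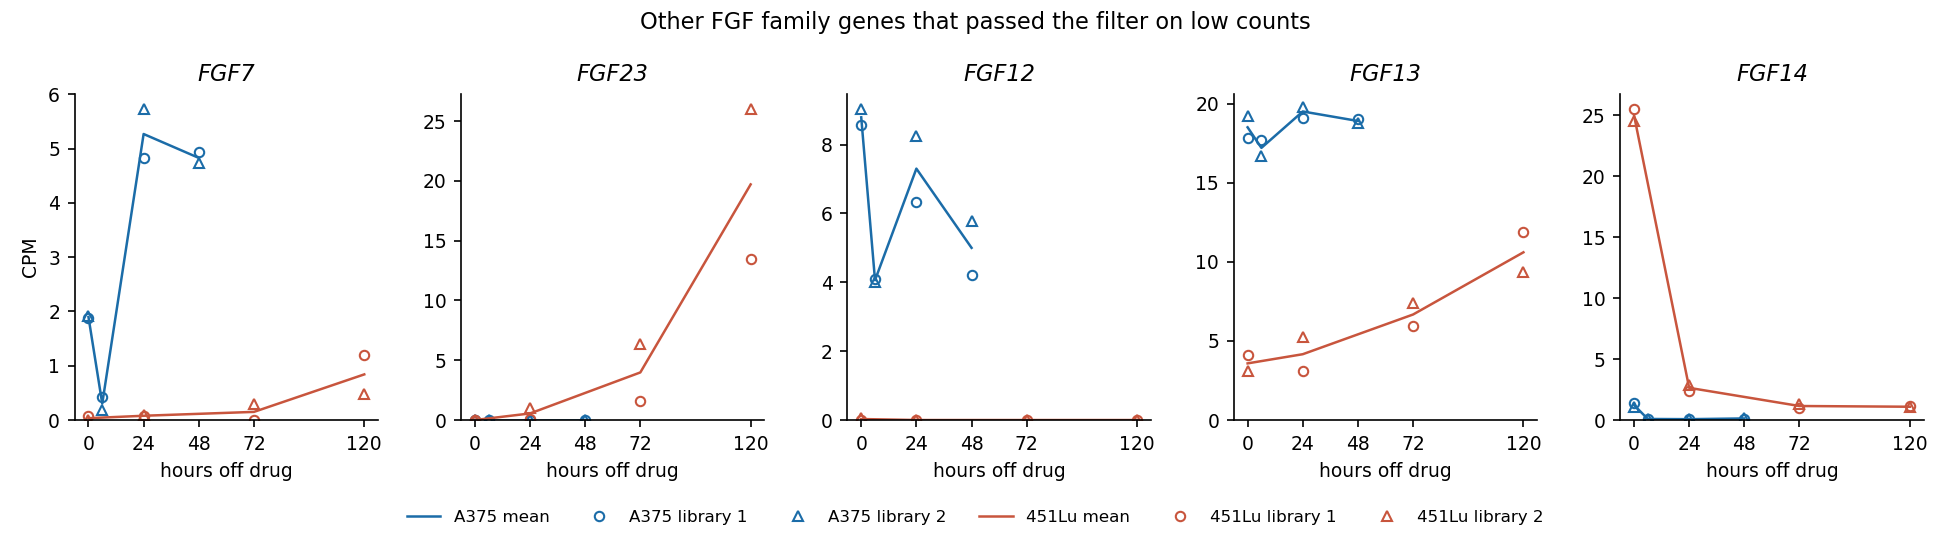
CPM in each library of FGF family genes outside the 8, by hours off drug and line, on linear axes from 0, with lines through the group means. FGF23 was found only in 451Lu off drug, where it reached 13.5 and 26.0 CPM at 120 h, while FGF14 fell from 25.5 and 24.5 CPM on drug to 1.11 and 1.06 CPM.

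The FGF homologous factors resemble FGFs but stay inside the cell and bind sodium channels. FGF14 fell in both lines. In 451Lu it went from 25.5 and 24.5 CPM on drug to 2.37 and 2.91 CPM at 24 h, 1.01 and 1.30 CPM at 72 h and 1.11 and 1.06 CPM at 120 h, a 23.0-fold fall by then (log2 -4.52 ± 0.19, adjusted p = 1.39e-12). In A375 it had 42 counts on drug and 2 or 3 in each later group, 14.3-fold lower at 6 h (95% interval 3.71 to 122). FGF12 fell 2.22-fold at 6 h in A375 (adjusted p = 5.41e-07), and FGF13 was 2.97-fold higher at 120 h in 451Lu (log2 1.57 ± 0.22, adjusted p = 7.29e-06).

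Of the co-receptors and surface proteoglycans, which present FGFs to their receptors, 14 of 16 listed were tested in A375 and 12 in 451Lu. At 120 h in 451Lu, 9 of 12 were called higher and 1 lower, where 37.3% of all genes were higher and 36.6% lower, with a median log2 change of 1.91 against 0.00 over all genes. At 48 h in A375, 6 of 14 were higher and 1 lower, against 36.6% and 36.0% of all genes (median 0.14). FLRT2, a membrane protein that binds FGF receptors, rose from 0.544 and 0.870 CPM on drug to 51.4 and 39.2 CPM at 120 h in 451Lu, 61.6-fold. It is among the 9 but passed the filter only through withdrawal groups, so no p is given. GPC4 (log2 3.63 ± 0.60) and GPC6 (log2 4.13 ± 0.27) are also among the 9. Their SEs were wider than that of FLRT2 (log2 5.94 ± 0.23), so they may have entered the same way. The count of 9 and the median include all of them. GPC1 and SDC4, heparan sulfate proteoglycans, rose in both lines, GPC1 5.06-fold at 6 h in A375 (adjusted p = 4.61e-27) and 7.72-fold at 120 h in 451Lu (adjusted p = 5.03e-12), and SDC4 3.59-fold at 48 h in A375 (adjusted p = 3.20e-23) and 4.41-fold at 120 h in 451Lu (adjusted p = 1.92e-13). HSPG2 rose 3.22-fold in 451Lu by 120 h (adjusted p = 2.25e-13). SDC3, another syndecan, was 2.50-fold higher at 24 h in A375 (adjusted p = 8.80e-23) and 2.40-fold lower at 72 h in 451Lu (adjusted p = 7.75e-10).

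Of the heparan sulfate synthesis and editing genes, 5 of 9 tested were higher and 1 lower at 120 h in 451Lu, where 37.3% and 36.6% of all genes were, with a median log2 change of 0.27. HS2ST1, the 2-O-sulfotransferase whose product FGF2 binds, rose 3.03-fold at 72 h (adjusted p = 5.89e-13), and EXT1, a chain-building enzyme, 2.81-fold (adjusted p = 1.91e-12). NDST1, an N-sulfotransferase of the same chains, fell 1.58-fold at 48 h in A375 (adjusted p = 7.37e-13) and 1.69-fold at 72 h in 451Lu (adjusted p = 9.20e-09). At 6 h in A375, 7 of 13 were higher and 1 lower, against 35.1% and 38.1% of all genes (median 0.31). EXTL3, a chain-building enzyme, rose 1.62-fold at 24 h there (adjusted p = 1.63e-14). S100A13, a partner in the release of FGF1, rose 8.06-fold at 48 h in A375 (adjusted p = 5.19e-31) and 16.4-fold at 120 h in 451Lu (adjusted p = 1.29e-15). It belongs to the ligand carriers and export genes, of which 2 of 5 tested were higher and 1 lower at 120 h in 451Lu (37.3% and 36.6% of all genes, median log2 0.07), and 4 of 7 higher and 2 lower at 48 h in A375 (36.6% and 36.0% of all genes, median 0.15). TEC, a kinase of FGF2, was 2.52-fold higher at 24 h in A375 (adjusted p = 4.42e-09).

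Among 14 feedback inhibitors and target genes, 10 were higher and 3 lower at 48 h in A375 (36.6% and 36.0% of all genes, median log2 1.66), and 11 higher and 1 lower at 120 h in 451Lu (37.3% and 36.6% of all genes, median 2.39). DUSP6, an ERK phosphatase, rose from 27.3 and 28.2 CPM to 320 and 321 CPM at 6 h in A375, 11.2-fold (adjusted p = 4.95e-33), and 55.0-fold by 120 h in 451Lu (adjusted p = 7.42e-17). SPRY4, a Sprouty inhibitor, rose 6.89-fold at 6 h in A375 (adjusted p = 1.02e-32) and 11.3-fold at 120 h in 451Lu (adjusted p = 1.56e-16). EGR1, an immediate early transcription factor, rose 122-fold at 24 h in A375 (adjusted p = 2.15e-39) and 5.49-fold at 120 h in 451Lu (adjusted p = 9.80e-14). CCND1, the gene of cyclin D1, rose 12.4-fold at 48 h in A375 (adjusted p = 4.31e-34) and 11.8-fold at 120 h in 451Lu (adjusted p = 5.96e-17). ETV5 fell in both lines, 3.47-fold at 6 h in A375 (adjusted p = 6.39e-24) and 2.16-fold at 24 h in 451Lu (adjusted p = 1.98e-08). ETV4 was 2.45-fold higher at 24 h in A375 (adjusted p = 4.57e-20), and at 120 h in 451Lu its change was log2 0.09 ± 0.10 (adjusted p = 0.410).

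Of the adaptors and close signalling proteins, 9 of 16 were higher and 7 lower at 48 h in A375 (36.6% and 36.0% of all genes), and 10 of 15 higher and 4 lower at 120 h in 451Lu (37.3% and 36.6%). FRS2, the docking protein that FGF receptors phosphorylate, was higher at 6 h (log2 0.58 ± 0.08, adjusted p = 2.91e-08) and 1.77-fold lower at 48 h in A375 (adjusted p = 1.25e-09), and 1.44-fold higher at 120 h in 451Lu (adjusted p = 0.000114). RPS6KA3, a ribosomal S6 kinase, rose 5.29-fold at 6 h in A375 (adjusted p = 4.14e-31). SHC1 rose 4.24-fold (adjusted p = 9.54e-15) and GAB2 fell 3.17-fold (adjusted p = 3.73e-12) at 120 h in 451Lu.

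ESRP1, a splicing regulator that favours the epithelial FGFR2 form, fell in both lines. In A375 it was at 25.9 and 27.8 CPM on drug and 0.440 and 0.345 CPM at 48 h, 68.4-fold lower (log2 -6.10 ± 0.22, adjusted p = 2.89e-23). In 451Lu it went from 65.9 and 59.8 CPM to 3 counts in all at 120 h, 460-fold lower (95% interval 157 to 2233, adjusted p = 7.80e-15). The gene table does not separate splice forms, so FGFR2 forms were not analysed here. Its relative ESRP2 was below 1.3 CPM in every library.

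Of other receptor tyrosine kinases, 16 were tested in each line: 7 were higher and 7 lower at 48 h in A375 (36.6% and 36.0% of all genes), and 9 higher and 6 lower at 120 h in 451Lu (37.3% and 36.6%). AXL rose from 0.110 and 0.576 CPM on drug to 19.8 and 20.2 CPM at 24 h in A375, 58.2-fold, whereas ERBB3 fell 7.35-fold at 6 h (adjusted p = 5.36e-32). KIT, the receptor of stem cell factor, was at 141 and 147 CPM in 451Lu on drug and 1.80 and 3.18 CPM at 120 h, 59.1-fold lower (adjusted p = 2.85e-15). Of the collagen receptors, DDR2 was 4.77-fold lower at 48 h in A375 (adjusted p = 6.12e-27) and 2.39-fold higher at 120 h in 451Lu (adjusted p = 5.56e-11), where DDR1 was 7.37-fold higher (adjusted p = 2.47e-13). PDGFRB was 119-fold higher at 120 h in 451Lu and had a log2 change of 0.43 ± 0.56 at 48 h in A375 (adjusted p = 0.499). AXL in A375 passed the filter only off drug, as did AXL, EGFR, PDGFRA and PDGFRB in 451Lu. Those 451Lu genes had 6, 5, 13 and 10 counts on drug and were all called higher at 120 h. For such rises no p is given. The counts of this list include all of these genes.

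For each of the 8 genes the 3 genes with the most similar log2 CPM over all 16 libraries were found among 13439, by Pearson's r, as a description, since the libraries fall into 2 lines that shape every such value. FGF5 was closest to DUSP6 (r = 0.992) and FGF2 to SDC2 (r = 0.976), a heparan sulfate proteoglycan. FGF1 was closest to ATP2B1 (r = 0.983), FGFR1 to ANGPTL4 (r = 0.981), FGFR3 to IGBP1 (r = 0.984) and FGFRL1 to CXXC5 (r = 0.988). FGFR4 had the weakest nearest neighbour, POLG (r = 0.971), and FGFR2, found only in A375, the strongest, PKHD1 (r = 0.996).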

How the data were processed

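Total RNA was sequenced. The values are raw counts of reads for each Ensembl gene, as deposited. Tools named in the submitters' processing notes are TopHat2 2.1.0 and Bowtie 1.0.0, with build GRCh38; what counted the reads, with which annotation and strand setting, is not given in the sources used here. From these counts, each line was fitted alone with edgeR 4.0.16 (R 4.3.3; TMM scaling, filterByExpr with a minimum count of 10 and total of 15, quasi-likelihood F test; 14449 genes in A375, 13851 in 451Lu); a joint fit of 15481 genes gave the comparisons between lines. The SE is the absolute log2 change divided by the square root of F. Where a group had 0 counts, a fold is a lower bound against 3 counts over its 2 libraries; with 1 to 3 counts it is a ratio with an exact Clopper-Pearson 95% interval, which covers counting error only. Separate cultures for a group's 2 libraries are not named in the labels; p-values therefore reflect the spread of these libraries, which may be technical. TMM levels are relative to other genes. Genes outside the 8 could be named by rule: per list and line, the 3 with the smallest adjusted p off against on drug, the 3 most similar in pattern, overlapping genes, and a short set including NUDT6, FRS2, SPRY4, DUSP6, ETV4, ETV5, ESRP1 and ESRP2. The 8 genes and all lists were chosen with earlier results of these data known. Receptor shares with the longest protein-coding transcript as length were added after seeing the data. DESeq2 1.42.0, RLE factors, other filters, a replicate block and leaving out each library were the alternatives, and scripts were tested on simulated data.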

Additional observations from a re-analysis of the deposited data

Results flagged for a closer look

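The 24 h change differed between the lines for 3 of the 8 genes by the test of the difference itself in edgeR's joint fit (A375 minus 451Lu). The difference was log2 -6.20 for FGF1, which rose in 451Lu from 0 counts on drug, log2 1.83 for FGFR4, which rose in A375, and log2 -1.03 for FGFR1, which rose in both lines. Leaving out each of the 8 libraries concerned in turn gave -6.56 to -5.65, 1.70 to 1.96 and -1.16 to -0.88. For FGF1, both on-drug libraries of 451Lu had 0 counts, so this range cannot show how firm its size is. FGF1 also passed the filter only through groups outside this comparison.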

How the results depend on the processing

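Of 796 recomputed changes of single genes, 766 kept their direction and their side of the threshold, 21 lost a call, 2 gained one and 7 changed sign. RLE size factors and no filter on low counts changed none of the calls. With a minimum count of 30, 1 gene instead of 3 was called lower from 6 to 24 h in A375, because fewer genes were tested. With DESeq2, 0 genes instead of 1 (FGFR3, adjusted p = 0.0945) were called higher from 24 to 48 h in A375, and 0 instead of 1 (FGFR4, adjusted p = 0.153) lower at 72 h in 451Lu. DESeq2 also dropped the calls of FGF2 (adjusted p = 0.0604) and FGFR3 (adjusted p = 0.125) at 24 h in A375. It further dropped those of FGF5 from 6 to 24 h in A375 and from 24 to 72 h in 451Lu (adjusted p = 0.0628). The cause was not tested. Leaving out single libraries gave 1 to 3 genes lower from 24 to 48 h in A375 (2 with all libraries), 2 to 3 lower from 6 to 24 h, and 0 to 1 lower at 72 h in 451Lu. Changes of sign under such omissions concerned uncalled values: FGF2 from 6 to 24 h in A375 (-0.14 to 0.07), FGF1 (-0.04 to 0.20) and FGF5 (-0.45 to 0.17) from 72 to 120 h in 451Lu, and the 24 h difference between lines of FGFR3 (-2.68 to 0.41) and FGFRL1 (-0.42 to 0.05). The sample titles carry the letter B or C in every group, called the first and second library here. Deviations of same-letter libraries correlated at 0.206 to 0.327 among the withdrawal groups of 451Lu. Between these and on-drug cells the correlation was -0.04 to 0.002, and in A375 it was -0.23 to 0.044. Not every pair exceeded 0.1, so the main fit used no pairing. Whether same-letter libraries of 451Lu came from a shared culture series was not tested. A replicate block kept 109 of 110 values, and only the on-drug FGF5 difference, with 0 counts in both lines, changed sign (-0.21). With transcript lengths, an alternative added after seeing the data, the A375 shares of FGFR1 and FGFR4 at 48 h changed order (49.8% against 37.6%, from 40.1% against 41.0%). Depth limits FGF1 in A375, FGF2 in 451Lu up to 24 h and FGFR3 in 451Lu, with 0 to 7 counts in most of those groups.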
